A study of Mus musculus with 14 samples.

Results

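A set of 10 genes of intestinal epithelium was followed through transplanted mouse gastric tumours, namely the transcription factor genes Cdx1 and Cdx2, the structural genes Vil1 and Cdh17, and Lgals4, Fabp1, Fabp2, Guca2a, Mep1a and Spink4. They were picked out by gene symbol, with no threshold on their levels, and all 10 were found among 24421 entries. Each library holds the polyA RNA of roughly 1 cm3 of tumour, and the 12 libraries form 4 groups of 3, namely orthotopic TMPC, subcutaneous TMPC, subcutaneous TMP and subcutaneous TM. Orthotopic grafts lie in the organ of origin and subcutaneous grafts under the skin, and all tissue was taken 2 months after transplantation. What the letters of TM, TMP and TMPC stand for is not given in the labels, and neither is the strain or age of the host, so these serve as names only. The replicates are not stated to be separate animals, and p-values therefore cover the scatter among libraries, part of which could be technical.

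In the intestine, CDX1 and CDX2 are homeodomain factors that set the identity of the epithelium and act together with HNF4 and GATA factors. Their target genes build the absorptive cell, with its brush border of villin-bundled microvilli, its fatty acid carriers and its surface enzymes, while goblet cells secrete mucus and small protease inhibitors. The healthy stomach has little or no CDX2, and its appearance there is the textbook mark of intestinal metaplasia. Several of the partner factors, among them Hnf4a, Gata4, Gata5 and Gata6, are also made by normal gastric epithelium.

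Across the 12 libraries these genes did not behave as 1 block. Both CDX factor genes were at the limit of counting in all 4 groups. Vil1, Cdh17, Fabp2 and Spink4 were higher in orthotopic than in subcutaneous TMPC tumours. Vil1 and Spink4 were also high in 2 of the 3 subcutaneous TM libraries, and Cdh17 was highest in the remaining one.

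Library totals lay between 16584781 and 21107310 counts. The limit that a count of 0 allows, 3 reads, is 0.128 to 0.207 CPM (read counts scaled to the library total, with TMM factors), counting error only. A pair of libraries stood apart. Subcutaneous TM replicate 2 had a summed level of 240 CPM over 7 epithelial markers, against 4032 and 4342 CPM in TM replicates 1 and 3, and 7569 CPM over 5 leukocyte markers, against 2558 and 2285 CPM. Orthotopic TMPC replicate 3 had 8625 CPM over 7 liver markers, against 9.03 and 5.43 CPM in orthotopic replicates 1 and 2, and 288 CPM over 5 pancreas markers, against 1.36 and 2.40 CPM. All 12 libraries held epithelial markers, TM replicate 2 the least. That library had 0 reads of Ddx3y, Eif2s3y, Kdm5d and Uty, all on the Y chromosome, of which each of the 11 others had between 49 and 2135 reads per gene. Xist, the transcript of the inactive X chromosome in female cells, had 52, 8 and 4 reads in orthotopic TMPC replicates 1 to 3, 6, 2 and 262 in subcutaneous TMPC, 19, 5 and 39 in TMP, and 5725, 20805 and 4182 in TM. The TM libraries thus differ from all others in Xist, and TM replicate 2 also in lacking Y-linked reads. In bulk tissue fewer cells of a type and less RNA per cell cannot be told apart.

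**Figure D1:**
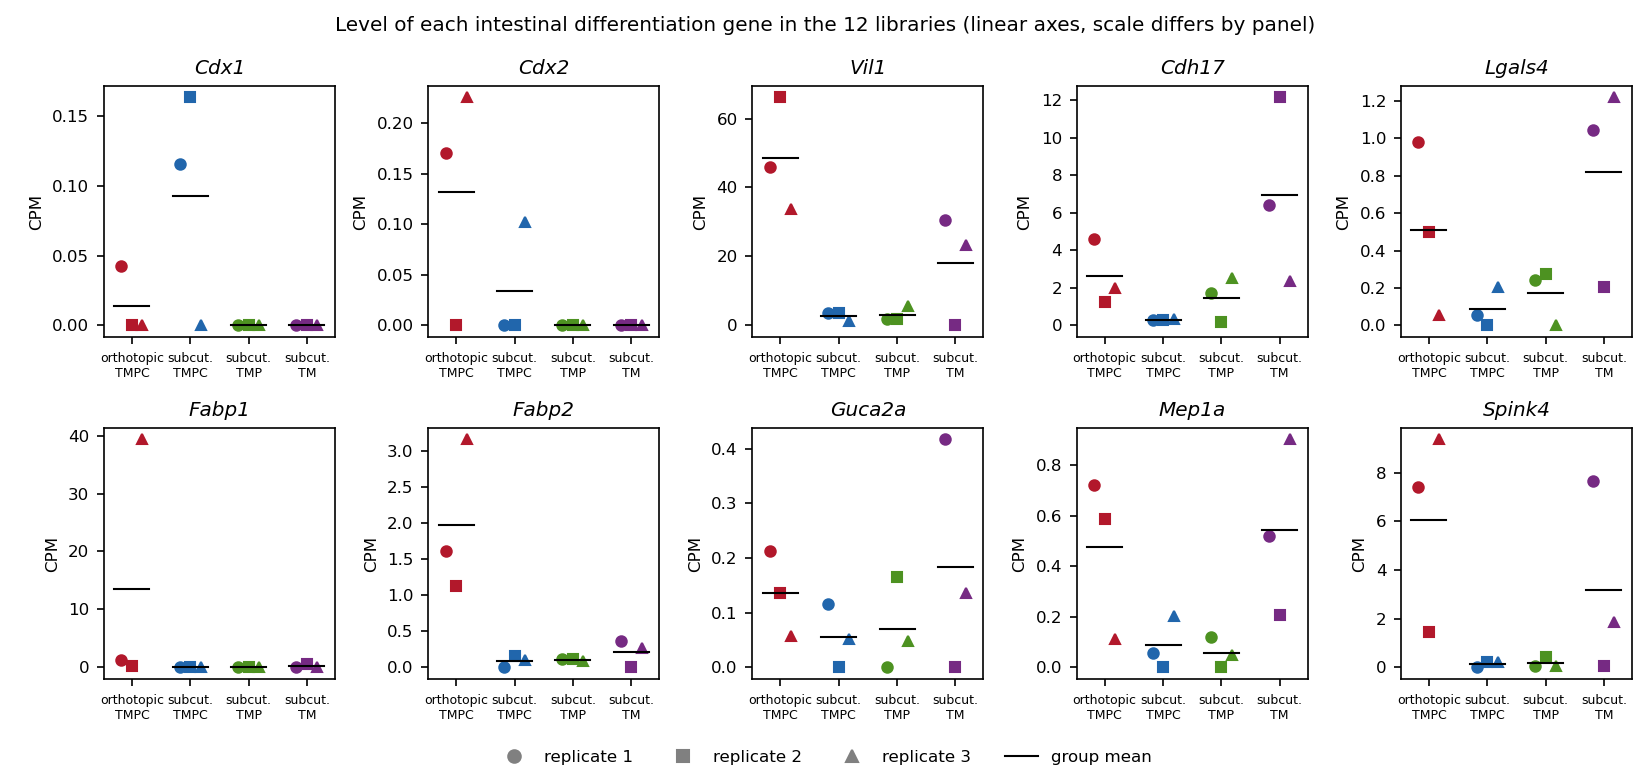
Level of each of the 10 genes in CPM (linear axes whose scale differs by panel) in orthotopic TMPC, subcutaneous TMPC, subcutaneous TMP and subcutaneous TM libraries, with 1 point per library and a line at the group mean. Vil1 sits between 33.7 and 66.1 CPM in the orthotopic libraries and at or below 5.55 CPM in the subcutaneous TMPC and TMP libraries, while Cdx1 and Cdx2 stay below 0.23 CPM everywhere.

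Promoter sequence is shown for the genes whose site difference the results turn on and that have an entry among the RefSeq promoters of GRCm38.p6, which held 7 of the 10 genes. Each run is given 5′ to 3′ on the gene's strand and stops before the first annotated transcript base. Capitals mark a match on either strand to TTTATG, the core bound by CDX factors.
Vil1 at chr1:74409134-74409375, plus strand: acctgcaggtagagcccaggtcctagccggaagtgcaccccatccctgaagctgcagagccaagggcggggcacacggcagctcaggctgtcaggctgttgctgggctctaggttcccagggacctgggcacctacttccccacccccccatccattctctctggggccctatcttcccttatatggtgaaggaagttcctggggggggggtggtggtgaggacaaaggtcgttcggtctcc
Fabp1 at chr6:71199629-71199826, plus strand: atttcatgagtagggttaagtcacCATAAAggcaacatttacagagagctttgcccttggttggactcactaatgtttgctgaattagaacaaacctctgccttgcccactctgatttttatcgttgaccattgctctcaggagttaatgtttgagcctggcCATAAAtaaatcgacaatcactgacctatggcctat
Fabp2 at chr3:122894822-122895071, plus strand: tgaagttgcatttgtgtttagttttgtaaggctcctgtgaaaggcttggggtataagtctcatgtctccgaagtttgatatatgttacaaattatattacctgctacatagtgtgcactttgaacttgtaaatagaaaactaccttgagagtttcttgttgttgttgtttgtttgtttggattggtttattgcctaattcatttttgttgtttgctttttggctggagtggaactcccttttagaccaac

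The 250 bases before the RefSeq start were searched on both strands for 3 motifs. Among 32851 promoter windows of this length, 10.8% held the CDX motif TTTATG, and Fabp1 held 2 such matches, both on the minus strand, 226 and 88 bases before its start. The GATA motif AGATAA stood in 9.99% of windows, and Guca2a held 2 matches, 144 and 120 bases before its start. The HNF4A motif CAAAGTCCA stood in 0.384% of windows and in none of the 7 genes. Cdx2, Vil1, Lgals4, Fabp2 and Mep1a held none of these motifs, and no match overlapped with one of another motif. A match describes the letters only.

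Cdx1 and Cdx2, the intestinal identity factors, were the least counted of the 10. Cdx1, on chromosome 18, had 1, 0 and 0 reads in orthotopic TMPC replicates 1 to 3, 2, 3 and 0 reads in subcutaneous TMPC replicates 1 to 3, and 0 in the 6 TMP and TM libraries. Cdx2 (chromosome 5, 147300805 to 147307270, minus strand, mm10) had 4, 0 and 4 reads in the orthotopic TMPC libraries, 0, 0 and 2 in the subcutaneous TMPC libraries, and 0 in the 6 others. At 6 and 10 reads over all 12 libraries neither gene passed the filter on low counts, and a difference between groups was not detectable at this depth. The ratio of orthotopic to subcutaneous TMPC reads was 0.174 for Cdx1 (95% interval 0.00369 to 1.56, counting error only) and 3.49 for Cdx2 (0.696 to 33.7). Cdx4, the third member of the family, had 0 reads in all 12 libraries.

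Vil1 encodes villin, which bundles the actin filaments of microvilli (chromosome 1, 74409376 to 74435559, plus strand). It had 46.0, 66.1 and 33.7 CPM in orthotopic TMPC replicates 1 to 3, 3.46, 3.65 and 1.33 CPM in subcutaneous TMPC, 1.80, 1.81 and 5.55 CPM in subcutaneous TMP, and 30.5, 0.138 and 23.3 CPM in subcutaneous TM. The orthotopic libraries did not overlap with the subcutaneous TMPC and TMP libraries, and TM replicates 1 and 3 lay below the lowest orthotopic value and above every TMPC and TMP value. TM replicate 2, with 2 reads, was the lowest of all 12. Group means ranked in the order orthotopic TMPC (48.6 ± 16.4 CPM), subcutaneous TM (18.0 ± 15.9), subcutaneous TMP (3.05 ± 2.16) and subcutaneous TMPC (2.81 ± 1.29; SD, n = 3 each), and the last pair did not differ beyond their spread.

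Cdh17 encodes liver-intestine cadherin, an adhesion protein of the lateral membrane of intestinal cells (chromosome 4, 11758147 to 11817895, plus strand). It had 4.60, 1.27 and 1.98 CPM in orthotopic TMPC replicates 1 to 3, 0.288, 0.272 and 0.359 CPM in subcutaneous TMPC, 1.74, 0.165 and 2.51 CPM in TMP, and 6.41, 12.1 and 2.35 CPM in TM. Its highest library was TM replicate 2, where Vil1 was lowest and epithelial markers were low. Subcutaneous TMPC lay below both the orthotopic and the TM group without overlap, whereas TMP overlapped with all 3 other groups.

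Fabp1 and Fabp2 encode the liver and intestinal fatty acid binding proteins, and Fabp1 is also one of the abundant transcripts of hepatocytes. Fabp1 (chromosome 6, 71199827 to 71205023, plus strand) had 28, 4 and 697 reads in orthotopic TMPC replicates 1 to 3, 0 reads in all 6 subcutaneous TMPC and TMP libraries, and 0, 9 and 0 reads in TM. The highest value, 39.3 CPM, stood in the orthotopic library with the liver markers. Fabp2 (chromosome 3, 122895072 to 122899506, plus strand) had 1.62, 1.13 and 3.16 CPM in orthotopic TMPC, 0, 0.163 and 0.102 CPM in subcutaneous TMPC, 0.120, 0.110 and 0.0948 CPM in TMP, and 0.365, 0 and 0.271 CPM in TM. Every subcutaneous Fabp2 value rested on 7 reads or fewer, and all 9 lay below the lowest orthotopic value.

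**Figure D2:**
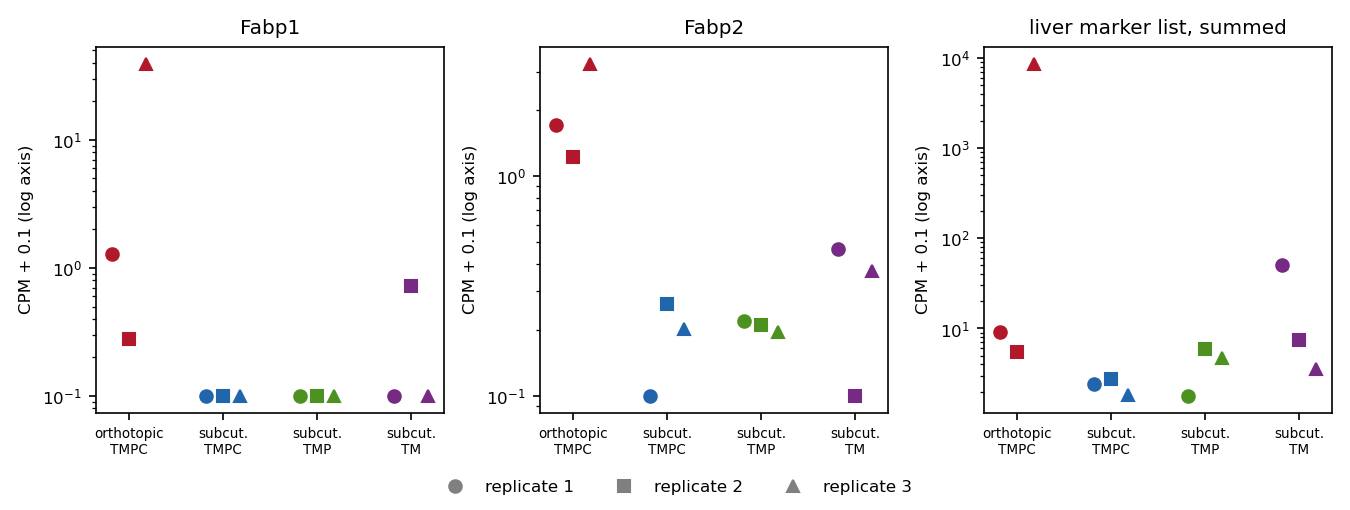
Fabp1, Fabp2 and the summed level of 7 liver markers in each library, as CPM plus 0.1 on log axes, with 1 point per library. Orthotopic TMPC replicate 3 is the highest library in all 3 panels, at 39.3, 3.16 and 8625 CPM, and for Fabp2 the other orthotopic libraries also sit above all 9 subcutaneous ones.

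Spink4 encodes a Kazal-type protease inhibitor known from goblet cells (chromosome 4, 40920052 to 40931395, plus strand). It had 7.41, 1.45 and 9.37 CPM in orthotopic TMPC replicates 1 to 3, 0, 0.218 and 0.205 CPM in subcutaneous TMPC, 0.0602, 0.439 and 0.0474 CPM in TMP, and 7.66, 0.0690 and 1.85 CPM in TM. As with Vil1, TM replicates 1 and 3 lay among or near the orthotopic values and TM replicate 2 among the lowest.

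The remaining genes stayed near the counting limit. Lgals4, which encodes the lectin galectin-4 (chromosome 7, 28833854 to 28841708, plus strand), had 23, 11 and 1 reads in orthotopic TMPC, 1, 0 and 4 in subcutaneous TMPC, 4, 5 and 0 in TMP and 20, 3 and 27 in TM. Its level is uncertain, since Lgals6 is a near-identical copy in mouse. Mep1a, the alpha subunit of the surface protease meprin (chromosome 17, 43474324 to 43502812, minus strand), had 17, 13 and 2 reads in orthotopic TMPC, 1, 0 and 4 in subcutaneous TMPC, 2, 0 and 1 in TMP and 10, 3 and 20 in TM. Both genes were therefore highest in orthotopic replicates 1 and 2 and in TM replicates 1 and 3. Guca2a, which encodes the gut peptide hormone guanylin (chromosome 4, 119637704 to 119639471, plus strand), had 5, 3 and 1 reads in orthotopic TMPC, 2, 0 and 1 in subcutaneous TMPC, 0, 3 and 1 in TMP and 8, 0 and 3 in TM. All 4 groups overlapped for Guca2a.

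Set per kilobase of exon, so that genes can be compared, the orthotopic group means were 24.5 CPM per kb for Fabp1, 13.7 for Vil1, 12.7 for Spink4, 2.04 for Fabp2, 0.584 for Cdh17, 0.227 for Guca2a, 0.221 for Lgals4, 0.138 for Mep1a, 0.0584 for Cdx2 and 0.00811 for Cdx1. The first of these values rested on 1 library. In subcutaneous TMPC tumours Vil1 led with 0.792 CPM per kb, and in subcutaneous TM tumours Spink4 and Vil1 led with 6.69 and 5.06 CPM per kb. The Spink4 mean in TM rested mostly on replicate 1, with 147, 1 and 41 reads in TM replicates 1 to 3.

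The site of growth was compared between orthotopic and subcutaneous TMPC tumours, which carry the same label and differ in where they grew. Tested with edgeR (quasi-likelihood, Benjamini-Hochberg adjusted over 15123 genes), 4 of the 10 genes passed the filter and all 4 rose in orthotopic tumours, where 14% of all genes tested rose. Of the 4, 3 (Cdh17, Fabp2 and Spink4) did so only through the orthotopic libraries, so they had to differ and their count supports nothing. Vil1, with 60, 67 and 26 reads in the subcutaneous libraries, passed it on its own. The orthotopic libraries lay above the subcutaneous TMPC libraries without overlap for 5 of the 10 genes, these 4 and Fabp1, as for 22.3% of all genes tested. Fabp1, with 4 reads in orthotopic replicate 2, did not pass the filter.

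Vil1 rose by 4.18 ± 0.48 on the log2 scale (SE, adjusted p = 0.00864 by edgeR) and was higher in 3 of 3 orthotopic libraries. It passed under all 11 alternatives, with an adjusted p of at most 0.0469 and a log2 fold change of 3.83 to 4.38. Cdh17 rose by 3.14 ± 0.64 (adjusted p = 0.0189), Fabp2 by 4.42 ± 0.90 (adjusted p = 0.0189) and Spink4 by 5.42 ± 1.14 (adjusted p = 0.0201). These 3 each passed under 6 of 11 alternatives. Among the others, they missed the threshold without orthotopic replicate 1, without orthotopic replicate 2, without subcutaneous TMPC replicate 2 and without subcutaneous TMPC replicate 3, with adjusted p-values up to 0.0758, 0.0664 and 0.0670 for Cdh17, Fabp2 and Spink4.

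Without the orthotopic library that held liver markers the same 4 genes rose, where 16.5% of all genes tested did. Vil1 alone had at least 10 reads in every subcutaneous TMPC library. The other 3 were again testable only through the orthotopic libraries, so the count of 4 supports nothing. Vil1 then rose by 4.38 ± 0.47 (adjusted p = 0.00612), Cdh17 by 3.30 ± 0.70 (adjusted p = 0.0213), Fabp2 by 3.90 ± 0.89 (adjusted p = 0.0254) and Spink4 by 4.96 ± 1.15 (adjusted p = 0.0262, all by edgeR). Fabp1 was at least 212-fold higher in orthotopic TMPC tumours over all libraries, with 729 reads against 0 and a floor of 3 reads over the subcutaneous group. Without orthotopic replicate 3 it was at least 12.9-fold higher, with 32 reads against 0. Lgals4 and Mep1a became testable without that library and did not pass, with log2 fold changes of 3.02 ± 1.03 (adjusted p = 0.0739) and 2.85 ± 0.99 (adjusted p = 0.0787). The ratio of Guca2a reads, 9 against 3, was 2.62 with an interval of 0.653 to 15.0, so a difference was not detectable at this depth.

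**Figure D3:**
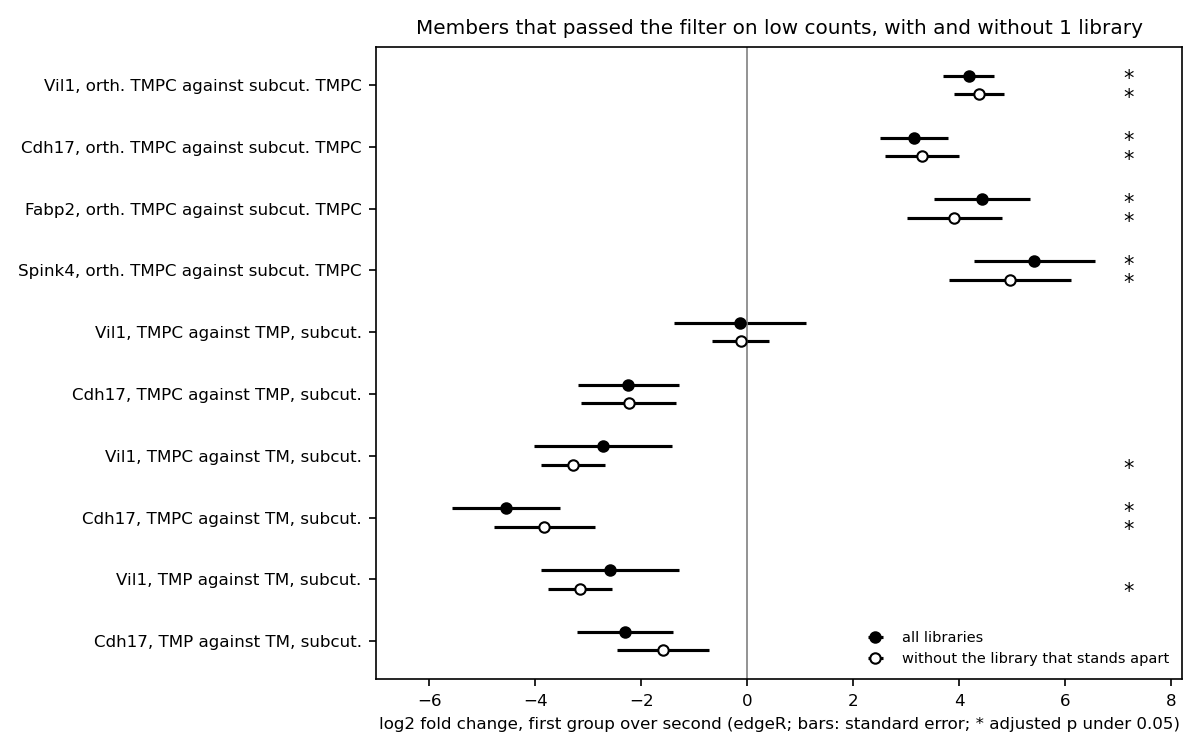
Log2 fold change of each gene that passed the filter on low counts (first group over second, edgeR, bars show 1 standard error), with all libraries (filled) and without the library that stood apart in that comparison (open: orthotopic TMPC replicate 3 for the site, subcutaneous TM replicate 2 otherwise). A star marks an adjusted p under 0.05. The site fold changes lie between 3.14 and 5.42 with all libraries, and Vil1 and Cdh17 lie below 0 in every comparison with TM.

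Markers of gastric epithelium moved with the site as well. The 4 gastric pit cell markers summed to between 3340 and 5315 CPM in orthotopic TMPC tumours and to between 0.0544 and 0.461 CPM in subcutaneous TMPC tumours, where Gkn2, a secreted gastrokine of pit cells, had 0 reads. None of them had 10 reads in every subcutaneous TMPC library, and the same held for the chief and parietal cell markers, so these were testable only through the orthotopic libraries and a count of them supports nothing. The chief and parietal cell markers summed to between 60.9 and 391 CPM in orthotopic and between 0.0577 and 1.20 CPM in subcutaneous TMPC tumours. Among the 5 such markers found, 3 had 0 reads in subcutaneous TMPC tumours, namely Pga5, Pgc and Atp4b. General epithelial markers summed to 4256 to 7383 CPM in orthotopic and to 1002 to 3333 CPM in subcutaneous TMPC tumours. Of these 7 markers 3 rose, where 14% of all genes tested rose. Scaled to Epcam, Vil1 had 9.92, 11.2 and 5.25 CPM per 100 CPM of Epcam in the orthotopic libraries, against 2.99, 0.577 and 0.200 in the subcutaneous TMPC libraries, without overlap. The part of normal gastric tissue in the site difference was not tested.

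The partner transcription factors of the intestine rose in part. Of 17 such genes 14 were tested and 7 rose in orthotopic tumours, where 14% of all genes tested rose. Only 8 of the 14 had at least 10 reads in every subcutaneous TMPC library, and of these 2 rose. The others were testable only through the orthotopic libraries, where they are high, so the count of 7 supports nothing. The 7 included Nr1i2, Gata4, Gata5, Hnf4g, Gata6 and Hnf4a, of which Gata4 and Gata6 were the 2 with such reads. Hnf4a, a nuclear receptor needed for enterocyte genes, had 57.3, 78.5 and 63.7 CPM in orthotopic TMPC replicates 1 to 3, against 2.77, 0 and 0.102 CPM in subcutaneous TMPC, and rose by 6.21 ± 1.33 on the log2 scale (adjusted p = 0.0208 by edgeR). Gata4 rose by 3.11 ± 0.44 (adjusted p = 0.0103 by edgeR). Gata5 was at least 229-fold higher in orthotopic tumours, with 789 reads against 0. Nr1i2, the xenobiotic receptor PXR, had 923 reads in orthotopic against 2 in subcutaneous TMPC tumours, a ratio of 403 with a counting interval of 111 to 3330.

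**Figure D4:**
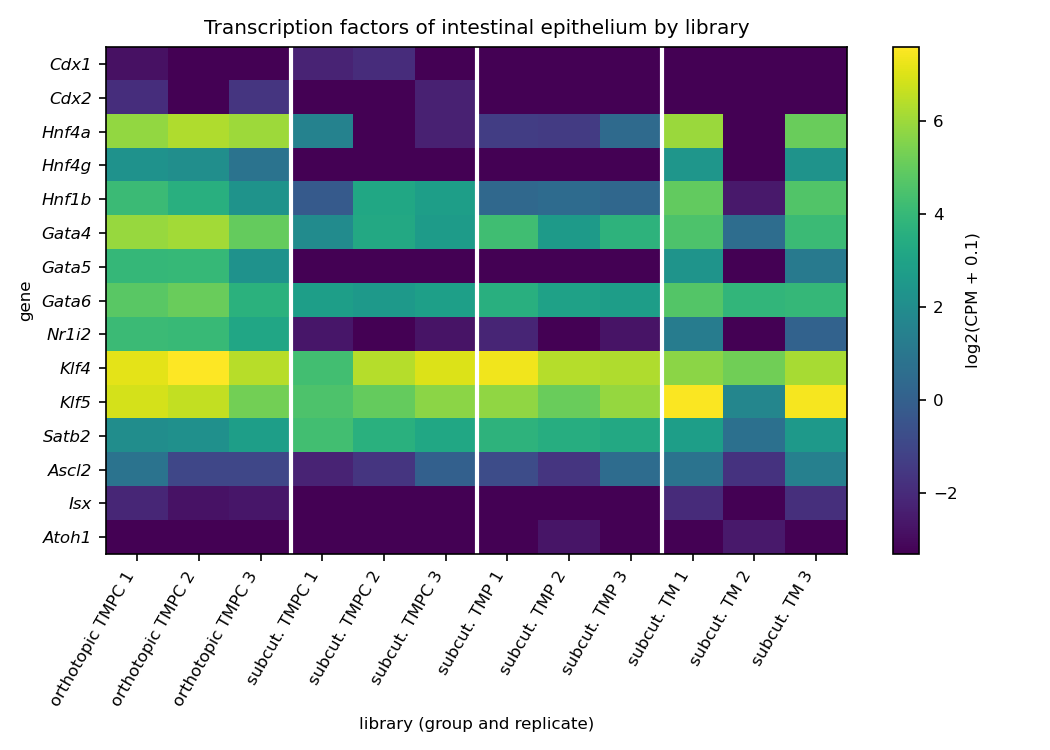
Level of 15 transcription factor genes of intestinal epithelium in the 12 libraries, as log2(CPM + 0.1), with white lines between orthotopic TMPC, subcutaneous TMPC, subcutaneous TMP and subcutaneous TM. Hnf4a stands at 57.3 to 78.5 CPM in the orthotopic libraries and at 62.6 and 34.1 CPM in TM replicates 1 and 3, while Cdx1 and Cdx2 stay dark in all 12 columns.

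Of 19 genes of digestion and absorption 13 were tested and 8 rose in orthotopic tumours, where 14% of all genes tested rose. Of the 5 with at least 10 reads in every subcutaneous TMPC library, 2 rose, Anpep and Krt20, and the rest were testable only through the orthotopic libraries. Rbp2, the retinol carrier of enterocytes, had 23.1, 17.6 and 10.6 CPM in orthotopic against 0.865, 0.381 and 0.922 CPM in subcutaneous TMPC tumours (log2 fold change 4.62 ± 0.54, adjusted p = 0.00868 by edgeR). Apoa4, an apolipoprotein of chylomicrons, was at least 179-fold higher, with 617 reads against 0, and at least 104-fold higher without the library that held liver markers. Anpep, aminopeptidase N of the brush border, rose by 0.93 ± 0.21 (adjusted p = 0.0223) and Krt20, a keratin of mature surface cells, by 3.70 ± 0.82 (adjusted p = 0.0226). Alpi, Apob and Slc2a5 also rose, but Apob, also a liver gene, had 503 CPM in orthotopic replicate 3, against at most 6.90 CPM in the other orthotopic libraries. Sis, the sucrase-isomaltase of the small intestine, had 12, 0 and 0 reads in the orthotopic libraries.

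Brush border genes rose in 6 of 8 tested cases out of 10 listed, again beside 14% of all genes. Of the 4 with at least 10 reads in every subcutaneous TMPC library, 2 rose, Eps8 and Pls1. The other 4 that rose were testable only through the orthotopic libraries. Myo1a, the brush border myosin, rose by 5.11 ± 0.76 (adjusted p = 0.0106 by edgeR), at 37.3, 33.9 and 25.2 CPM in orthotopic against 2.13, 0.490 and 0.307 CPM in subcutaneous TMPC tumours. Anks4b, a scaffold of the links between microvilli, rose by 5.72 ± 1.15 (adjusted p = 0.0183), and its partner cadherin gene Cdhr5 was at least 59.9-fold higher, with 206 reads against 0. Of these reads, 52, 11 and 143 stood in orthotopic replicates 1 to 3, so most came from the library that held liver markers. Cdhr5 also passed without that library (adjusted p = 0.0330 by edgeR). It was again testable only through the orthotopic libraries, so this call supports nothing. Myo7b, with 14, 11 and 74 reads in orthotopic replicates 1 to 3, Pls1 and Eps8 made up the 6. Ezr and Espn did not pass. Without orthotopic replicate 3, Eps8 missed the threshold (adjusted p = 0.0545 by edgeR). Of the 4 genes with at least 10 reads in every subcutaneous TMPC library, Pls1 alone then rose, where 16.5% of all genes tested rose.

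Goblet cell genes rose in 4 of 5 tested cases out of 9 listed, beside 14% of all genes. Of the 4 with at least 10 reads in every subcutaneous TMPC library, 3 rose, Spdef, Agr2 and Fcgbp, while Clca1 was testable only through the orthotopic libraries. Clca1, a secreted mucus protein, had 237, 495 and 201 CPM in orthotopic against 0.346, 0.0544 and 0.256 CPM in subcutaneous TMPC tumours (log2 fold change 10.50 ± 0.68, adjusted p = 0.00351 by edgeR). Spdef, a transcription factor of secretory cells, rose by 3.59 ± 0.50 (adjusted p = 0.00982), Agr2, a folding enzyme of mucus cells, by 6.38 ± 0.93 (adjusted p = 0.0103) and Fcgbp, a mucus protein, by 5.73 ± 0.88 (adjusted p = 0.0109). Muc2, the main intestinal mucin, had 26, 8 and 3 reads in orthotopic and 1, 6 and 15 reads in subcutaneous TMPC tumours and was not tested. Atoh1, the factor of the secretory lineage, had 0 reads in both groups.

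Lists of other intestinal cells were sparser, and their counts stand beside 14% of all genes tested that rose. Of 7 Paneth cell genes 2 were tested, both only through the orthotopic libraries, and 1 rose, Itln1, an intelectin, at 184, 7.55 and 2.03 CPM in orthotopic against 0.173, 0 and 0.205 CPM in subcutaneous TMPC tumours (adjusted p = 0.0303 by edgeR). The defensin genes Defa17 and Defa24 had 0 reads in all 12 libraries. Of 5 colonocyte genes 2 were tested and Ms4a8a, testable only through the orthotopic libraries, rose by 5.86 ± 1.38 (adjusted p = 0.0261). Its highest count of all 12 libraries, 515 reads, stood in subcutaneous TM replicate 2, against 290, 178 and 264 in orthotopic TMPC replicates 1 to 3. Of the 4 guanylin pathway genes 2 were tested and 0 passed by edgeR. DESeq2 called 2, where it called 38.7% of all genes tested in either direction. Without orthotopic replicate 3, 1 rose, the chloride channel gene Cftr, where 16.5% of all genes tested rose. Cftr had 56.3, 66.5 and 15.0 CPM in orthotopic and 3.34, 16.4 and 13.9 CPM in subcutaneous TMPC tumours.

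Family relatives of the 10 genes rose in 4 of 8 tested cases out of 13 listed, beside 14% of all genes. Of the 7 with at least 10 reads in every subcutaneous TMPC library, 3 rose, Lgals9, Avil and Lgals3, while Lgals2 was testable only through the orthotopic libraries. Lgals9, a galectin, rose by 3.08 ± 0.31 (adjusted p = 0.00756 by edgeR), at 206, 315 and 188 CPM in orthotopic against 39.8, 23.2 and 24.7 CPM in subcutaneous TMPC tumours. Avil, the villin relative advillin, rose by 3.77 ± 0.55 (adjusted p = 0.0103), Lgals2 by 4.62 ± 1.03 (adjusted p = 0.0231) and Lgals3 by 0.94 ± 0.26 (adjusted p = 0.0421).

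Subcutaneous TMP tumours were set against subcutaneous TM tumours, at the same site. Of the 10 genes 2 were tested and 0 passed by edgeR, where 13.4% of all genes tested were lower and 14.3% higher. Vil1 had a log2 fold change of -2.59 ± 1.30 (adjusted p = 0.166) and Cdh17 of -2.30 ± 0.90 (adjusted p = 0.0891). DESeq2 called Cdh17 and Spink4 lower, where it called 18.1% of all genes tested lower. Mep1a was the only 1 of the 10 whose groups did not overlap, lower in TMP, as for 22.5% of all genes tested. It was not itself tested. The nearest libraries were TMP replicate 1 with 2 reads and TM replicate 2 with 3 reads, a gap within counting error.

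Without TM replicate 2 the same comparison gave 3 lower genes of 5 tested, where 15.1% of all genes tested were lower. Vil1 then fell by 3.16 ± 0.60 on the log2 scale (adjusted p = 0.00771 by edgeR), Spink4 by 4.69 ± 1.14 (adjusted p = 0.0181) and Mep1a by 3.60 ± 1.14 (adjusted p = 0.0451). Cdh17, which was highest in the library left out, had -1.59 ± 0.87 (adjusted p = 0.194), and Lgals4 had -2.74 ± 1.10 (adjusted p = 0.0916). Vil1 had at least 10 reads in every TMP library. Lgals4, Mep1a and Spink4 passed the filter only through TM, so the count of 3 supports nothing. Cdh17, with 29, 3 and 53 reads in TMP replicates 1 to 3, did not need TM to pass it.

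Subcutaneous TMPC tumours were also set against subcutaneous TM tumours. Of 2 tested genes Cdh17 fell by 4.55 ± 1.02 (adjusted p = 0.0117 by edgeR), where 17.8% of all genes tested fell, and it passed the filter only through TM and TMP libraries. It passed under all 12 alternatives, with an adjusted p of at most 0.0492. Vil1 had -2.72 ± 1.31 (adjusted p = 0.135). Without TM replicate 2, 4 of 5 tested genes fell, where 20.1% of all genes tested did, with Vil1 at -3.28 ± 0.60 (adjusted p = 0.00445), Cdh17 at -3.83 ± 0.96 (adjusted p = 0.0151), Spink4 at -5.01 ± 1.16 (adjusted p = 0.0112) and Lgals4 at -3.59 ± 1.17 (adjusted p = 0.0404). Of the 5, Vil1 alone had at least 10 reads in every TMPC library. The others were testable through TM, or for Cdh17 through TM or TMP, so the count of 4 supports nothing. Groups did not overlap for Cdh17, Lgals4 and Mep1a, each lower in TMPC, as for 21.6% of all genes tested. For Lgals4 and Mep1a this rests on scaling alone, since the nearest libraries were TMPC replicate 3 with 4 reads (0.205 CPM) and TM replicate 2 with 3 reads (0.207 CPM). The comparisons of TMP and of TMPC with TM share the 3 TM libraries.

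Several of the partner genes followed the same libraries. Hnf4a had 2.77, 0 and 0.102 CPM in subcutaneous TMPC, 0.301, 0.275 and 1.28 CPM in TMP and 62.6, 0 and 34.1 CPM in TM. With all libraries Hnf4a did not pass in TMP against TM (adjusted p = 0.0881 by edgeR) or in TMPC against TM (adjusted p = 0.0961), and without TM replicate 2 it fell by 6.27 ± 1.41 in TMP (adjusted p = 0.0137) and by 5.70 ± 1.36 in TMPC (adjusted p = 0.0127). Of the intestinal transcription factors 1 of 11 tested was lower in both comparisons, where 13.4% (TMP) and 17.8% (TMPC) of all genes tested were lower. That gene was Gata6, lower by 1.16 ± 0.33 in TMP (adjusted p = 0.0330 by edgeR) and by 1.55 ± 0.33 in TMPC (adjusted p = 0.00977). Without TM replicate 2 the counts were 8 of 15 lower in TMP and 9 of 15 lower in TMPC, where 15.1% and 20.1% of all genes tested were lower. Among the 8 with at least 10 reads in every library of the TMP or TMPC group, 3 were lower in TMP and 4 in TMPC. Gata6 and Klf5 were lower in both. The rest lacked such reads, and some, such as Gata5 and Hnf4g, were testable only through TM.

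In TMP against TM, 2 of 9 tested digestion and absorption genes fell, Dpp4 by 3.07 ± 0.62 (adjusted p = 0.0118 by edgeR) and Anpep by 1.04 ± 0.29 (adjusted p = 0.0314), both surface peptidases, where 13.4% of all genes tested fell. Of the others, 1 of 5 brush border genes (Eps8, an actin capping protein, log2 fold change -2.44 ± 0.51, adjusted p = 0.0131) and 1 of 4 goblet cell genes (Fcgbp, log2 fold change -3.12 ± 0.76, adjusted p = 0.0214) fell. All of these had at least 10 reads in every TMP library. The Paneth cell genes Lyz1 and Itln1 also fell but did not have such reads. In TMPC against TM, 4 of 9 digestion and absorption genes fell (Dpp4, Anpep, Slc2a5 and Mgam), 1 of 5 brush border genes and 2 of 4 goblet cell genes, where 17.8% of all genes tested fell. With at least 10 reads in every TMPC library, the counts were 2 of 5 (Dpp4 and Anpep), 1 of 4 and 2 of 4, and no Paneth cell gene had such reads. Dpp4, Slc2a5 and Mgam were highest in TM replicate 2, at 47.2, 21.9 and 19.0 CPM, and Lyz1 is uncertain because Lyz2 is a near-identical copy. In neither comparison did a colonocyte or guanylin pathway gene pass, and of the family relatives Lgals9 fell in both, with log2 fold changes of -2.27 ± 0.27 in TMP (adjusted p = 0.00229 by edgeR) and -2.92 ± 0.28 in TMPC (adjusted p = 0.000646).

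Other measures moved with the TM group beside these genes. Leukocyte markers summed to 507 to 1033 CPM in subcutaneous TMPC, 364 to 844 CPM in TMP and 2285 to 7569 CPM in TM. Msln, a gene of mesothelium, had 42, 6 and 56 reads in subcutaneous TMPC, 171, 56 and 139 in TMP, and 17304, 0 and 15270 in TM. Xist, given above, was higher in every TM library than in any other. The part of these measures, and of the Y-linked genes, in the lower levels of Vil1, Cdh17 and Spink4 was not tested. Scaled to Epcam, Vil1 had 0.285, 0.382 and 1.05 CPM per 100 CPM of Epcam in TMP, against 6.63, 0.259 and 4.38 in TM, so TM replicate 2 stayed apart on this scale too.

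Subcutaneous TMPC against subcutaneous TMP gave 0 calls among the 2 genes tested and 0 of 15277 genes by edgeR (0% of genes), with 465 genes at an unadjusted p under 0.05 and 16 calls by DESeq2. Vil1 had a log2 fold change of -0.13 ± 1.24 and Cdh17 of -2.25 ± 0.95. The 2 groups overlapped for all 10 genes, where 6.18% of all genes tested were higher and 6.28% lower in TMPC without overlap. None of the 8 lists of related genes had a member past the threshold. Among their most abundant genes, Klf4 had 19.6, 83.7 and 129 CPM in TMPC and 166, 82.5 and 77.8 CPM in TMP, and Krt20 had 55.8, 7.35 and 40.0 CPM in TMPC and 45.1, 12.5 and 59.5 CPM in TMP.

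The 10 genes followed different patterns across the libraries. On log2(CPM + 1) over 12 libraries, which share groups and differ in their share of epithelium, Vil1 had a Pearson correlation of 0.81 with Spink4, 0.35 with Fabp1 and 0.17 with Cdh17. Among 12019 genes with a mean of at least 5 CPM, the patterns most like Vil1 were those of Syt16 (r = 0.973), Ptprn2 (r = 0.973) and Ern2 (r = 0.969), the last a stress sensor of the endoplasmic reticulum in mucosal epithelium. Ern2 had 39.4, 41.0 and 10.7 CPM in orthotopic TMPC, 0.749, 0.272 and 0.256 CPM in subcutaneous TMPC, 0.481, 0.714 and 2.47 CPM in TMP and 24.5, 0 and 13.1 CPM in TM. Fabp1 lay closest to Fgl1, Rdh7 and Apof (r from 0.982 to 0.993), which had 328, 61.8 and 110 CPM in orthotopic replicate 3 and at most 5.11 CPM in any other library. Cdh17 lay closest to Brox, Edem2 and Vps37c (r from 0.926 to 0.931), and Spink4 to Stard13, Hgfac and Habp2 (r from 0.920 to 0.948).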

How the data were processed

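Whole-number counts per gene for 12 bulk libraries stood in 2 tables deposited by the authors, one of the 9 subcutaneous libraries and one of the 6 TMPC libraries. Beside them the authors deposited a normalized signal, the same counts over a size factor per library, per the file headers. It served only to check symbols. Reads were paired, of 150 bp, from polyA RNA, per the labels' protocols. The submitters' processing notes name the aligner STAR 2.6.0 and the build mm10. Which program counted reads, on which annotation and with what strand setting is not given in the sources used here. In the table of subcutaneous libraries, 12131 symbols, from entry 12291 on, stand out of step with the counts, so symbols were taken by position from the other table, whose shared libraries matched in all 24421 entries. With these symbols 24417 of 24417 genes matched the normalized signal within 0.01 reads, and 14198 did as deposited.

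Library totals gave the depth, and intervals (95%, exact for a ratio of reads) and floors of 3 reads cover counting error only. No pair of libraries of a group was a duplicate (chi-square per degree of freedom 28.4 to 429). Counts were tested in R 4.3.3 with edgeR 4.0.16 (TMM, filterByExpr with a minimum count of 10, glmQLFit and glmQLFTest, threshold 0.05). One fit covered the 9 subcutaneous libraries (6 residual degrees of freedom) and another the 6 TMPC libraries (4). On simulated data the fits called 1% of 2-fold changes in each subcutaneous comparison and 6% for the site. Of simulated 4-fold changes they called 41% to 50%, so smaller true differences would mostly be missed. DESeq2 1.42.0 and the other alternatives change 1 choice at a time. Gene positions are from GENCODE M21, promoters from RefSeq GRCm38.p6.

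The 10 genes and the lists of related genes were chosen with earlier results of these data known. All 10 are reported. Of each list, up to 4 genes past the threshold with the smallest adjusted p are named, or the most abundant where none passed, and other genes named were chosen after their values were seen. Same-numbered replicates did not deviate together in every pair (correlations from -0.218 to 0.271), so the numbers were not taken to pair libraries. The 2 single-cell samples were not analysed here. Some genes of these lists count in the totals and are not reported here by name.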

Additional observations from a re-analysis of the deposited data

How the results depend on the processing

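In TMP against TM, 4239 genes passed with all libraries and between 1550 and 4885 when 1 library was left out, the count falling by over 1.5 times without any 1 of the TMP libraries. Of the 10 intestinal genes 0 passed, 2 by DESeq2, and between 0 and 3 with 1 library left out, the 3 without TM replicate 2. In TMPC against TM, 5469 genes passed, 3536 with only these groups fitted, and between 3414 and 6390 with 1 library left out, the lowest without TMPC replicate 2. Of the 10, 1 passed, 2 by DESeq2, 2 with all 12 libraries fitted, and between 1 and 4 with 1 library left out, the 4 without TM replicate 2. In TMPC against TMP, 0 genes passed, and 16 by DESeq2. The log2 fold change of Vil1 there, -0.13, changed sign to 0.17 with the replicate block and lay between -0.38 and 0.63 with 1 library left out (above 0 without TMP replicate 3 and without TMPC replicate 3), within its standard error of 1.24. For the site, 4204 genes passed, 6371 by DESeq2, 1777 with the replicate block and between 387 and 4789 with 1 library left out, the lowest without orthotopic replicate 2, with over 1.5 times fewer also without orthotopic replicate 1 and without subcutaneous TMPC replicate 2 or 3. Of the 10, 4 passed, 1 with the replicate block (Vil1, 4.24 ± 0.30, adjusted p = 0.0369 by edgeR) and between 1 and 4 with 1 library left out, 1 without each of these same 4 libraries. The block is a check only, since the replicate numbers share no stated animal or batch. In TMP against TM the lowest same-number correlation was 0.0906, and 3 of 3 pairs correlated best with their own number. The cause of these moves was not tested. The scaling by DESeq2's size factors within edgeR moved no call of the 10. In TMPC against TMP, a fit without TM replicate 2, chosen after seeing the data, also gave 0 genes. It had 1144 genes at an unadjusted p under 0.05 by edgeR. With 3 libraries per group and 0 to 8 reads per library, Cdx1, Cdx2 and Guca2a could not be resolved.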
